A study of Meleagris gallopavo with 3 samples.

Results

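Gene expression in turkey satellite cells grown attached to a dish without differentiation was set against that in cells grown in suspension. Genes with at least 5 CPM (counts per 1000000 exon reads of the library) in either library were compared. Of 23976 genes in the deposited table, 15712 had at least 1 exon read in either library, and 10811 reached the minimum and are described here. An exon length of 0 is given for 7759 of the 23976 genes. Such genes can hold no exon reads, so their lack of exon reads does not show that they were silent. Satellite cells are the stem cells of skeletal muscle, and these came from the breast muscle of turkeys 1 day old. By the study's methods, they were divided between conditions after 2 weeks of shared culture without differentiation. The Adherent group stayed on gelatin in McCoy's medium with chicken serum. The Suspension group was lifted with EDTA and kept in the same medium and serum in a rotated flask for 3 months. Any effect of attachment and any effect of the months in the flask therefore cannot be told apart. All groups went through several passages, but the methods give no duration for the Adherent group after the division. Another group, Differentiated, was attached and given horse serum, and is used only for an added level. Strain and sex of the birds are not given in the labels. The experiment was done 3 times, and the RNA of the 3 runs was pooled into 1 library per group. Each group is therefore 1 sample with no replicates, no test between groups could be run, and the intervals given are exact 95% intervals that cover counting error only.

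The libraries held 17444865 exon reads in Adherent and 23844835 in Suspension, so that 1 read was worth 0.0573 and 0.0419 CPM. The libraries are called here by the headings of their count columns, and these 2 headings may be exchanged. The headings were checked against the 3 columns in which the authors set the groups against each other. In 12196 of 12196 genes their suspension and adherent column matched these counts in size (within 0.02 on the log2 scale). Its sign was left aside, so the match would be the same with the 2 headings exchanged and cannot tell the 2 orders apart. Their column on differentiation that names suspension matched the counts headed Adherent instead (12207 of 12207 genes). The column that names adherent matched the counts headed Suspension (12154 of 12154 genes). With the headings as they stand, these 2 columns matched in 2.11% and 2.07% of genes. Both columns that can tell the orders apart thus fit only if the count headings, or their own, are exchanged. Which headings are wrong was not settled. If the headings are exchanged, every direction given here turns round.

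Quiescent satellite cells lie between the fibre and its basement membrane and are marked by the transcription factor PAX7. Activated cells divide as myoblasts under MYF5 and MYOD1, then leave the cell cycle, fuse and build sarcomeres. Growth on a surface works through integrins, focal adhesions and actin fibres, which cells in suspension form differently, and cells in suspension often gather into clumps with their own matrix and cell contacts.

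Of the 10811 genes, 2154 were higher in Adherent by 2-fold or more (19.9%) and 2334 were lower by as much (21.6%), which makes 41.5% past 2-fold in either direction. In the counts of list members below, higher and lower mean by 2-fold or more, and these shares are the background against which each count is read. Smaller groups within lists, such as the slow sarcomere forms or the cholesterol enzymes, were formed after their values were seen. The median log2 ratio of Adherent over Suspension was −0.15, with 5% of genes below −2.46 and 5% above 3.93. The spread was wider upwards than downwards. Past 4-fold lay 1214 higher and 781 lower genes, past 16-fold 529 higher and 163 lower ones, and past 100-fold 181 higher and 20 lower ones. The higher genes took 40.5% of the exon reads of Adherent and 8.88% of those of Suspension, while the lower genes took 10.6% in Adherent and 39.9% in Suspension. In 1575 genes the interval of the ratio spans the 2-fold limit. The minimum itself cuts through a dense range, since 305 kept genes had 5 to 6 CPM in their higher library and 342 genes left out had 4 to 5 CPM. The plot of all levels shows endothelial, glial and immediate early genes far above the line of equal levels, ribosomal protein genes in a band just above 2-fold, and cholesterol and sarcomere genes mostly below.

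**Figure D1:**
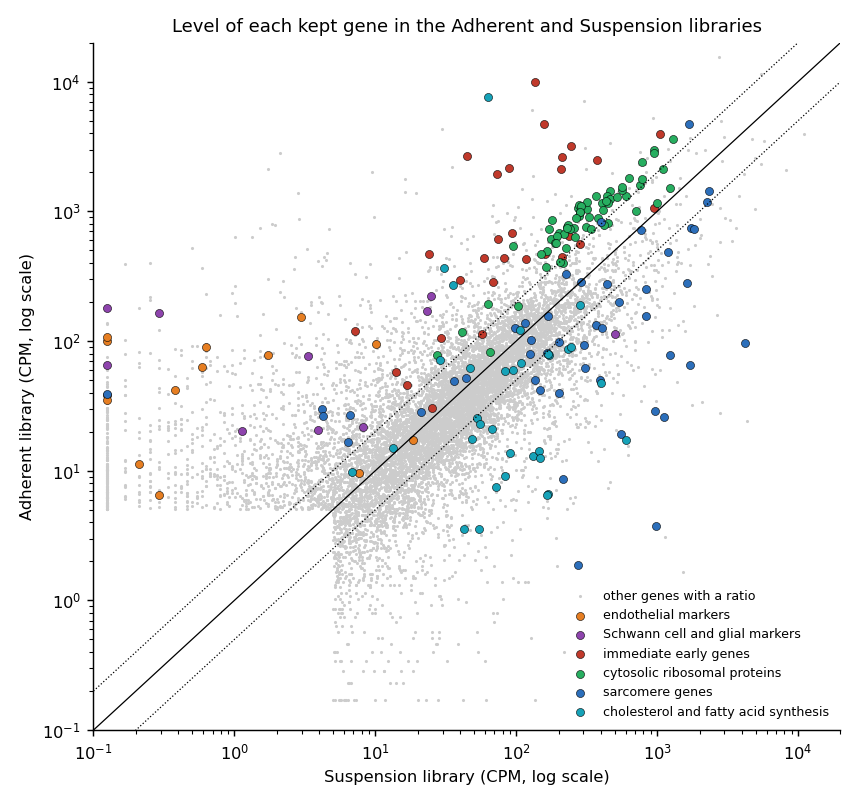
Level of each of the 10811 genes in the Adherent library (vertical axis) and the Suspension library (horizontal axis), in CPM on log scales. The solid line marks equal levels, the dotted lines 2-fold, levels under 3 reads are drawn at 3 reads, and coloured points are members of 6 gene lists.

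The genes of the sex chromosomes set the libraries apart. In birds females carry a Z and a W chromosome and males a Z pair, and most Z-linked genes are not fully evened out between the sexes. The table's chromosome names W and Z are exchanged against RefSeq (assembly Turkey_5.1). All 933 of its symbol-matched genes on W lie on Z in RefSeq, and all 5 on Z lie on W, so RefSeq's names are used here. Of the 5 W-linked genes, 3 had reads in some library. The others, LOC104915385 and LOC104915388, have an exon length of 0. LOC100548372 had 640 reads in Adherent (36.7 CPM), 0 reads in Suspension and 1633 reads in Differentiated (71.6 CPM). With the 0 of Suspension set to 3 reads (0.126 CPM), the gene stood 292-fold higher in Adherent, a log2 ratio of 8.19. The lower end of the interval was 7.89. LOC104915389 had 66 reads in Adherent, 4 reads in Suspension and 82 in Differentiated, and LOC100303669 had 16 in Adherent, 0 in Suspension and 45 in Differentiated. Adherent and Differentiated thus carried W-linked RNA at 41.4 and 77.1 CPM in sum, and Suspension at 0.168 CPM.

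The 461 Z-linked genes went the other way. Their median log2 ratio was −0.80 (quartiles −1.44 and 0.05), against −0.13 (quartiles −0.83 and 0.71) for 10349 genes of other chromosomes, a gap of −0.67 or 1.59-fold. Of the Z-linked genes, 58 (12.6%) were higher and 187 (40.6%) lower in Adherent, where the other chromosomes had 20.2% higher and 20.7% lower. No other chromosome with at least 50 genes had a median below −0.31. Among genes with a mean of 100 CPM or more, the medians were −0.65 for 58 Z-linked genes and −0.21 for 2191 others. Against Suspension, Differentiated had a median of −0.66 over Z-linked genes and −0.18 over the others. Among ribosomal protein genes, Z-linked RPS6 and RPS23 had log2 ratios of 0.22 and 0.89, against a list median of 1.53, while RPL37, also Z-linked, had 1.66. Of the other genes named below, ABCA1, C1QTNF3, F2RL1, HMGCS1, VCAN and VLDLR are Z-linked. Leaving out both sex chromosomes gives 2095 genes higher and 2147 lower of 10349. The sex of the birds behind each library is not in the labels, and its part in the differences described below was not tested. The methods describe a shared culture before the division, while W-linked RNA differed between the libraries as given above. Whether the libraries come from the same birds was not tested.

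**Figure D2:**
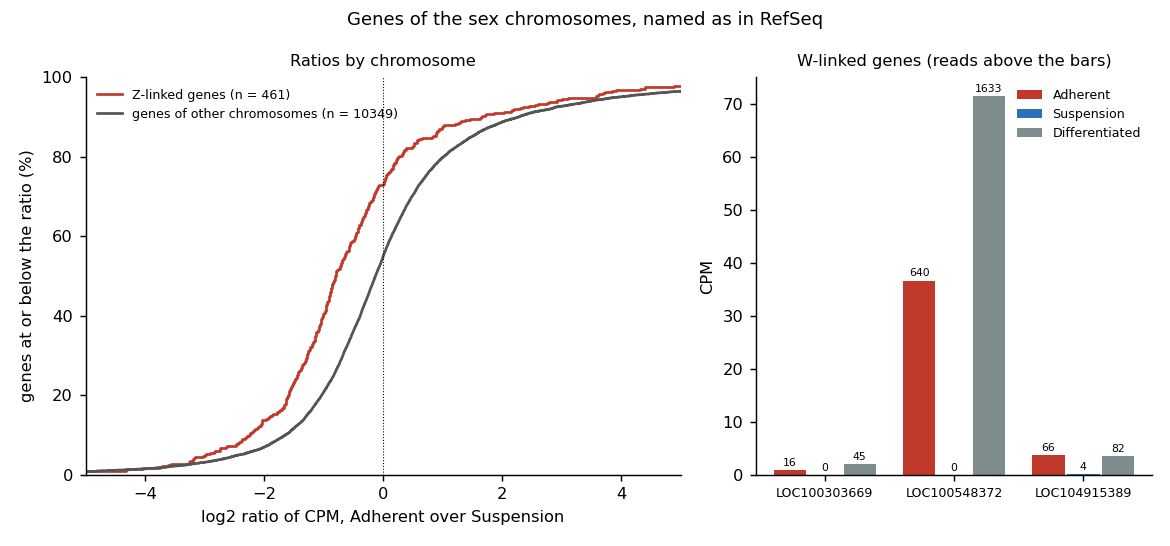
Left, share of genes (%) at or below each log2 ratio of Adherent over Suspension, for 461 Z-linked genes and 10349 genes of other chromosomes, whose medians are −0.80 and −0.13. Right, CPM of the 3 W-linked genes with reads in the Adherent, Suspension and Differentiated libraries, with read counts above the bars (640, 0 and 1633 reads for LOC100548372).

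The myogenic genes were present in both libraries and did not move as a group. Of 21 satellite cell and myogenic genes, all kept, 8 were higher and 5 lower in Adherent, with a median of 0.24. MYF5, which marks the committed satellite cell and early myoblast, had 263 CPM in Adherent and 29.7 in Suspension (log2 ratio 3.15, interval 3.03 to 3.26). MYOD1, the determination factor of myoblasts, had 1522 CPM in Adherent and 768 in Suspension, a log2 ratio of 0.99 just under 2-fold. PAX7 was low in both, with 4.93 CPM in Adherent and 24.2 in Suspension. These 3 factors thus did not share a direction.

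Several genes known from satellite cells were higher in Adherent. VGLL2, a cofactor of TEAD factors in muscle, had 328 CPM in Adherent and 7.13 in Suspension. The syndecan gene SDC4, a heparan sulphate coreceptor, had 191 CPM in Adherent and 7.80 in Suspension, and CXCR4, the chemokine receptor, 25.3 CPM in Adherent and 3.44 in Suspension. CD34, which also marks endothelial and mesenchymal progenitor cells, had 1657 reads in Adherent and 15 reads in Suspension (log2 ratio 7.24). Lower in Adherent were the adhesion molecule NCAM1, at 179.6 CPM in Adherent and 1236 in Suspension, and the intermediate filament genes DES (1064 CPM in Adherent and 2781 in Suspension) and NES (24.1 CPM in Adherent and 4339.6 in Suspension). MCAM, MET, SIX4 and HEYL lay within 0.3 of 0 on the log2 scale.

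The endothelial, leukocyte and glial lists had the highest medians of the 45 lists. In bulk RNA, fewer cells of a type and less RNA per cell cannot be told apart. Of 14 endothelial genes, 12 were higher and 0 lower in Adherent, with a median log2 ratio of 6.24 and a summed level of 847 CPM in Adherent and 43.4 in Suspension. PLVAP, a protein of endothelial pores, had 107 CPM in Adherent and 3 reads in Suspension. TIE1, an endothelial receptor kinase, had 100.3 CPM in Adherent and 3 reads in Suspension. CDH5, the cadherin of endothelial junctions, had 89.4 CPM in Adherent and 0.629 in Suspension, and PECAM1 had 154 CPM in Adherent and 2.98 in Suspension. All 14 reached 5 CPM in Adherent and 3 did in Suspension, among them the transcription factors ERG and PROX1, which differed by less than 2-fold.

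Macrophage and glial genes had the same order. Of 16 leukocyte and macrophage genes found in the table, 9 were kept, of which 8 were higher and 0 lower in Adherent (median 4.97). All 9 reached 5 CPM in Adherent and 2 did in Suspension. A gene that reached the minimum in Adherent only is higher there by the rule itself, so these counts partly follow from the minimum. Adding 10 CPM to each library shrinks ratios of genes near 0. The medians were then 2.35 for the endothelial, 0.83 for the leukocyte and 2.58 for the glial list. With no minimum the medians were 1.95 for the leukocyte and 2.83 for the glial list, while the endothelial one stayed at 6.24. CSF1R, the receptor of the macrophage growth factor, had 61.6 CPM in Adherent and 0.503 in Suspension, and the complement genes C1QA, C1QB and C1QC summed to 34.4 CPM in Adherent and 0.503 in Suspension. The pan-leukocyte gene PTPRC had 15.0 CPM in Adherent and 4.07 in Suspension, a log2 ratio of 1.88 (interval 1.54 to 2.23). Of 10 kept Schwann cell and glial genes, 9 were higher and 1 lower in Adherent. All 10 reached 5 CPM in Adherent and 4 did in Suspension. SOX10, the transcription factor of the neural crest and Schwann lineage, had 65.7 CPM in Adherent and 3 reads in Suspension. The exception was CNP, with 114 CPM in Adherent and 504 in Suspension.

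Mesenchymal markers were divided. Of 15 kept fibroblast genes, 9 were higher and 5 lower in Adherent. PI16, a marker of adventitial fibroblasts in mouse, had 477 CPM in Adherent and 4.53 in Suspension, the proteoglycan DCN 1199 CPM in Adherent and 164 in Suspension, and the platelet-derived growth factor receptor PDGFRA 5.27 CPM in Adherent and 1 read in Suspension. The mesenchymal surface protein THY1 and the homeobox gene PRRX1 were lower in Adherent, THY1 at 34.7 CPM in Adherent and 253 in Suspension and PRRX1 at 37.3 CPM in Adherent and 196 in Suspension. Of 12 kept adipocyte genes, 4 were higher and 3 lower in Adherent. ADIPOQ, the hormone adiponectin, had 210.0 CPM in Adherent and 8.09 in Suspension, the desaturase SCD 17.3 CPM in Adherent and 602 in Suspension, and the adipogenic regulator PPARG 14.8 CPM in Adherent and 14.8 in Suspension. APOA1, the apolipoprotein of high-density lipoprotein, had 7691 CPM in Adherent, 63.3 in Suspension and 5682 in Differentiated. Of 16 smooth muscle and pericyte genes, 3 were higher and 4 lower, close to the shares over all genes (19.9% and 21.6%). The smooth muscle myosin MYH11 had 197 CPM in Adherent and 1.01 in Suspension, but caldesmon, CALD1, 127 CPM in Adherent and 639 in Suspension, and the actin ACTA2 277 CPM in Adherent and 439.8 in Suspension. The epithelial marker EPCAM had 7 reads in Adherent and 6 in Suspension.

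A count without the other-cell, immediate early and heat shock lists left 2070 genes higher and 2309 lower of 10662. The part of other cell types in the differences of any single gene was not tested. In Differentiated the endothelial, leukocyte and glial lists summed to 88.1, 43.7 and 198 CPM, against 847, 177 and 1056 CPM in Adherent and 43.4, 29.7 and 569 CPM in Suspension. Single members carried much of the lower sums. Of the glial sums, CNP alone held 504 CPM in Suspension, 149 in Differentiated and 114 in Adherent. Of the leukocyte sums, the kept gene that stayed under 2-fold held 16.7 CPM in Suspension, 28.5 in Differentiated and 12.7 in Adherent. In Differentiated CDH5 had 0.219 CPM and CSF1R 3.24 CPM.

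**Figure D3:**
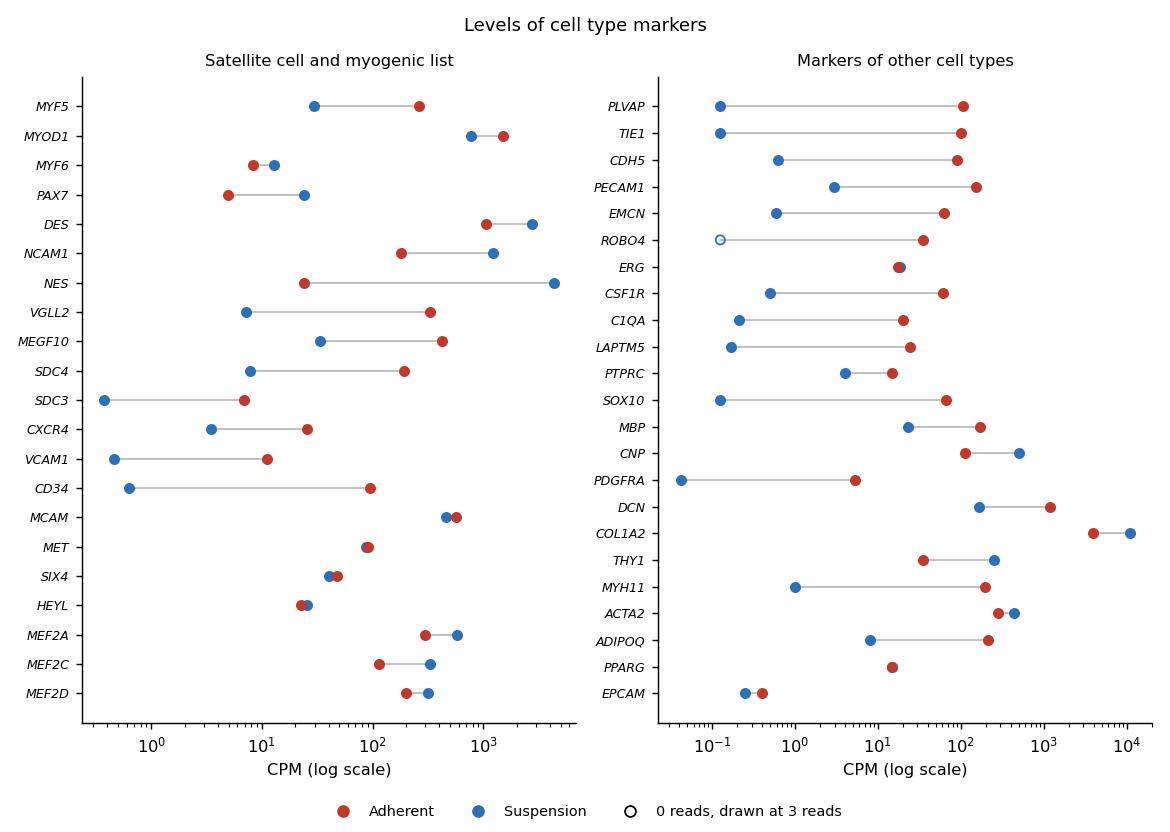
CPM (log scale) of the 21 satellite cell and myogenic genes (left) and of 23 markers of other cell types (right) in the Adherent (red) and Suspension (blue) libraries, with an open circle where 0 reads are drawn at 3 reads. The endothelial, macrophage and glial markers lie to the right in Adherent except ERG and CNP, whereas the myogenic genes go both ways.

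The contractile apparatus was lower in Adherent, and unevenly so. Of 47 sarcomere genes, 7 were higher and 26 lower in Adherent, with a median of −1.22. Slow, cardiac and embryonic forms lay far down. They were grouped after their values were seen, together with CSRP3, which is no isoform of a sarcomere chain. All 7 of MYL3, MYL4, MYL10, TNNT2, TNNI1, TNNC1 and CSRP3 were lower, with a median of −5.07 and a summed level of 292 CPM in Adherent and 9534 in Suspension. TNNT2, the cardiac and embryonic troponin T, had 97.1 CPM in Adherent and 4225 in Suspension (log2 ratio −5.44, interval −5.51 to −5.37). TNNI1, the slow troponin I, had 65.9 CPM in Adherent and 1716 in Suspension, and TNNC1, the slow and cardiac troponin C, 28.8 CPM in Adherent and 969 in Suspension. MYL3, a slow and cardiac myosin light chain, was down to 3.73 CPM in Adherent, against 975 in Suspension.

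The fast forms TNNT3, TNNI2, TNNC2 and MYL1 differed less, with 1 higher, 2 lower and a summed level of 3480.3 CPM in Adherent and 5759 in Suspension. The lower ones were TNNI2, the fast troponin I, at 483 CPM in Adherent and 1198 in Suspension, and MYL1, the fast myosin light chain, at 731 CPM in Adherent and 1835 in Suspension. TNNT3, the fast troponin T, had 1434 CPM in Adherent and 2325 in Suspension, and TNNC2, the fast troponin C, was higher in Adherent, at 832 CPM against 401 in Suspension. Scaled to exon length (CPM per kilobase of exon), TNNT3 stood at 985 in Adherent and TNNT2 at 66.8, whereas in Suspension TNNT3 stood at 1597 and TNNT2 at 2906. The order of the fast and the cardiac troponin T was thus opposite in the libraries. Skeletal actin, ACTA1, was also higher in Adherent, at 4739 CPM against 1691 in Suspension, as was TCAP, the titin cap, at 38.9 CPM in Adherent and 0 reads in Suspension. The giant proteins TTN (−0.95) and NEB (−0.65) stayed under 2-fold, but the obscurin relative OBSL1 had 1.89 CPM in Adherent and 273 in Suspension, and XIRP1, which binds actin in forming myofibrils, 78.5 CPM in Adherent and 1229 in Suspension.

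Of 21 membrane and junction genes of the fibre, 10 were lower and 5 higher, with a median of −0.35 against −0.15 for all genes. CHRNA1, the ligand-binding subunit of the muscle acetylcholine receptor, had 159 CPM in Adherent and 2674 in Suspension, whereas CHRND, the delta subunit, had 236 CPM in Adherent and 98.9 in Suspension, so that subunits of 1 receptor differed in direction. JPH2, which holds the calcium store against the fibre membrane, had 7.28 CPM in Adherent and 136 in Suspension, and the calcium store protein CASQ2 100.2 CPM in Adherent and 702 in Suspension. SLN, a small inhibitor of the calcium pump, was higher in Adherent, at 57.8 CPM against 2.73 in Suspension. For cell fusion, 5 of 12 kept genes were lower and 1 higher, the lower ones being CDH2, MYOF, CAV3, JAM3 and IGSF3. The cadherin CDH2 had 15.6 CPM in Adherent and 621 in Suspension.

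**Figure D4:**
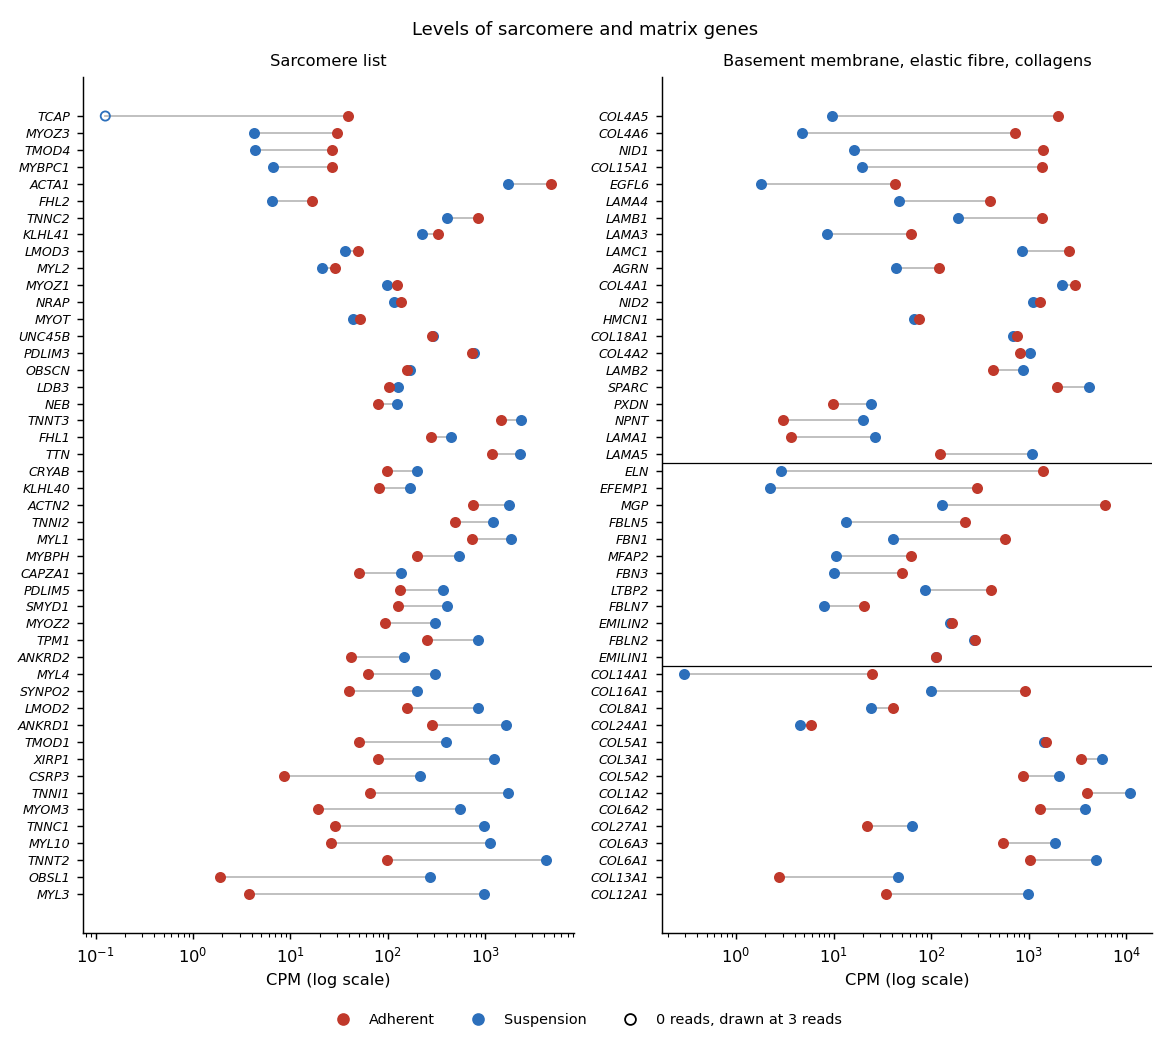
CPM (log scale) of 47 sarcomere genes (left) and of kept basement membrane, elastic fibre and collagen genes (right, groups separated by lines) in the Adherent (red) and Suspension (blue) libraries, each group ordered by ratio, with an open circle for 0 reads. Slow and cardiac sarcomere forms lie at the bottom with Suspension far to the right (TNNT2 at 97.1 CPM in Adherent and 4225 in Suspension), and elastic fibre genes have Adherent to the right or level.

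The atrophy list went against the sarcomere list. Of its 15 kept genes 8 were higher and 3 lower in Adherent, with a median of 1.35. These are ubiquitin ligases of muscle and the FOXO factors that switch them on. FOXO3 had 925 CPM in Adherent and 67.9 in Suspension, and the ligases TRIM63 and FBXO32 had 424 and 264 CPM in Adherent, against 136 and 104 in Suspension. SESN1, a sestrin that restrains mTOR complex 1, had 1255 CPM in Adherent and 129 in Suspension. The ligase HECW2 was lower, at 60.4 CPM in Adherent and 673 in Suspension. In the separate list of muscle energy metabolism 3 of 10 kept genes were higher and 1 lower, with a median of −0.01. Its largest ratio was that of PDK4, the kinase that closes the entry of pyruvate into mitochondria. PDK4 had 902 CPM in Adherent and 9.73 in Suspension, a log2 ratio of 6.53 (interval 6.35 to 6.73).

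Matrix genes divided by the kind of matrix. Of 12 elastic fibre and microfibril genes, 9 were higher in Adherent and 0 lower, with a median of 2.44. FBN1, the main microfibril protein, had 568 CPM in Adherent and 40.6 in Suspension. Fibulins differed from each other, FBLN5, which is needed to assemble elastic fibres, having 221 CPM in Adherent and 13.3 in Suspension, while FBLN2 had 281 CPM in Adherent and 273 in Suspension.

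Fibrillar and associated collagens went down, with 8 of 14 kept genes lower and 2 higher in Adherent and a median of −1.33. COL1A2, a chain of type I collagen, had 3977 CPM in Adherent and 10967 in Suspension, and the 3 type VI chains COL6A1, COL6A2 and COL6A3 summed to 2896 CPM in Adherent and 10604 in Suspension. COL12A1, which coats fibrils, had 34.4 CPM in Adherent and 975 in Suspension. The 2 higher ones were COL14A1, at 24.6 CPM in Adherent and 0.294 in Suspension, and COL16A1, at 908 CPM in Adherent and 98.8 in Suspension. Enzymes and chaperones of collagen making went with the fibrillar chains, 12 of 20 being lower and 2 higher (median −1.30). SERPINH1, the collagen chaperone, had 391 CPM in Adherent and 2285 in Suspension, and P4HB, a subunit of prolyl 4-hydroxylase, 266 CPM in Adherent and 1081 in Suspension.

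Basement membrane genes fell into chains that were high in Adherent and chains that were high in Suspension, 10 of 22 being higher and 6 lower. COL4A1 and COL4A2, the common type IV collagen chains, stayed under 2-fold (0.44 and −0.34), whereas COL4A5 and COL4A6 had 1999.6 and 727 CPM in Adherent, against 9.52 and 4.70 in Suspension. Of 8 kept laminin chains, LAMA3, LAMA4, LAMB1 and LAMC1 were higher in Adherent and 3 were lower, LAMA1 and LAMA5 among them. LAMA4, a chain of vessel and muscle laminins, had 403 CPM in Adherent and 47.0 in Suspension, and LAMA5 122 CPM in Adherent and 1083 in Suspension. NID1, which links laminin to collagen IV, had 1402 CPM in Adherent and 16.3 in Suspension, while its relative NID2 had 1317 CPM in Adherent and 1115 in Suspension. COL15A1, a collagen of the outer basement membrane zone, had 1384 CPM in Adherent and 19.6 in Suspension.

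Small proteoglycans and matricellular proteins were mixed, with 11 of 24 kept genes higher and 9 lower. CYR61 (CCN1) had 2622 CPM in Adherent and 212 in Suspension, whereas CTGF (CCN2), another immediate target of YAP, had 1056 CPM in Adherent and 956 in Suspension. SMOC2, a matricellular protein of basement membranes, had 362 CPM in Adherent and 2.64 in Suspension. Fibronectin, FN1, had 586 CPM in Adherent and 3424 in Suspension, the proteoglycan VCAN 22.2 CPM in Adherent and 365 in Suspension, and the hyaluronan receptor CD44 42.7 CPM in Adherent and 243 in Suspension.

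Among proteases of the matrix, 6 of 22 kept genes were higher and 11 lower in Adherent. The higher ones included ADAMTS1, an aggrecan and versican protease, at 4299.9 CPM in Adherent and 29.9 in Suspension, ADAMTS9 at 169 CPM in Adherent and 3.90 in Suspension, and the inhibitor TIMP4 at 102 CPM in Adherent and 6.58 in Suspension. TIMP2 and TIMP3 had the other direction, TIMP3 at 387 CPM in Adherent and 1719 in Suspension. ADAM8, a membrane protease that sheds surface proteins, had 7 reads (0.401 CPM) in Adherent and 220.0 CPM in Suspension, a log2 ratio of −9.10 (interval −10.41 to −8.05).

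Genes of attachment to the matrix were lower in Adherent. In the focal adhesion and actin fibre list, 15 of 33 kept genes were lower and 3 higher, with a median of −0.94. PXN, the adaptor paxillin, had 108 CPM in Adherent and 440.3 in Suspension, and vinculin, VCL, 128 CPM in Adherent and 362 in Suspension. Non-muscle myosin MYH9 had 191 CPM in Adherent and 1001 in Suspension, and parvin PARVB 4.30 CPM in Adherent and 166 in Suspension. The focal adhesion kinase PTK2 was level (0.03), and the GTPase gene RHOB, which is induced early after growth factors and stress, was higher, at 3987 CPM in Adherent and 1047 in Suspension.

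Integrins varied by subunit, with 2 of 8 kept genes higher and 4 lower. ITGB1, the shared beta subunit, had 607 CPM in Adherent and 1367 in Suspension, ITGA6, a laminin receptor, 406 CPM in Adherent and 1418 in Suspension, and ITGAV, of the vitronectin and fibronectin receptors, 3.67 CPM in Adherent and 72.6 in Suspension. ITGB4, the hemidesmosome subunit, had 10.8 CPM in Adherent and 2 reads in Suspension. Junction proteins had 11 genes higher and 11 lower of 28 kept. The connexin GJA1 had 35.4 CPM in Adherent and 301 in Suspension, plakoglobin, JUP, 383 CPM in Adherent and 1090.2 in Suspension, and the cadherin CDH11 the opposite order, with 50.6 CPM in Adherent and 2.22 in Suspension. The median of the junction list, 0.06, became −1.15 with a minimum of 50 CPM and 1.18 over all gene reads.

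Immediate early genes were higher in Adherent nearly throughout. Cells switch these genes on within a short time of a stimulus, from factors already present. Of 29 kept genes, 25 were higher and 0 lower in Adherent, with a median of 2.75 and a summed level of 43096 CPM in Adherent and 5137 in Suspension. JUN, a subunit of the AP-1 factor, had 9866 CPM in Adherent and 136 in Suspension (log2 ratio 6.18, interval 6.13 to 6.23). The zinc finger factor EGR1 had 4684 CPM in Adherent and 158 in Suspension, KLF2 2682 CPM in Adherent and 44.7 in Suspension, and the phosphatase gene DUSP1 2171 CPM in Adherent and 89.1 in Suspension. Only SRF, MYC, PTGS2 and CTGF of the kept members stayed under 2-fold. In Differentiated JUN had 269 CPM and EGR1 142, so that Adherent stood above both other libraries.

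Several genes of inflammatory signalling shared the direction. Of 23 kept genes of the chemokine, cytokine and interferon list, 11 were higher and 4 lower in Adherent. NFKBIA, NFKBIZ, TNFAIP3, SOCS1, SOCS3 and IRF1, of NF-kappaB and STAT signalling, were grouped after their values were seen. All were higher, and they summed to 1731 CPM in Adherent and 81.6 in Suspension. IRF1, a transcription factor of the interferon response, had 436 CPM in Adherent and 14.8 in Suspension. The interferon response genes IFIH1, PARP9 and DTX3L had the other order, DTX3L at 2.87 CPM in Adherent and 17.8 in Suspension.

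Of 34 kept heat shock genes, 8 were higher and 9 lower, with a median of −0.11. Over all genes 19.9% were higher and 21.6% lower, with a median of −0.15, so the list as a whole stood close to the background. HSPA2, of the Hsp70 family, had 7043 CPM in Adherent and 301 in Suspension, the small heat shock gene HSPB9 2203 CPM in Adherent and 35.0 in Suspension, and HSP90AA1 5209.8 CPM in Adherent and 931 in Suspension. UBB, a polyubiquitin gene, had the most exon reads of any gene in Adherent, 15501 CPM against 2763 in Suspension. The muscle chaperones HSPB1 and HSPB8 were lower, HSPB1 at 215 CPM in Adherent and 762 in Suspension. The 6 chaperonin subunits had a median of −0.53, and 1 of them, CCT8, was lower. FKBP5, a cochaperone that glucocorticoids induce, had 1888 CPM in Adherent and 131 in Suspension.

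Cholesterol synthesis was the list with the lowest median among those with more than 3 members, −1.35, with 20 of 32 kept genes lower and 4 higher in Adherent. Over the 14 enzymes of the pathway the median was −3.26, and 11 of them were lower. SQLE, squalene epoxidase, had 6.59 CPM in Adherent and 169 in Suspension, and MSMO1, a sterol demethylase, 6.48 CPM in Adherent and 166 in Suspension. HMGCS1, which makes the precursor of mevalonate and is Z-linked, had 9.17 CPM in Adherent and 82.9 in Suspension. The regulator SREBF2 had 47.2 CPM in Adherent and 398 in Suspension, and the desaturase SCD 17.3 CPM in Adherent and 602 in Suspension. Genes of cholesterol export and receptor turnover had the other order. ABCA1, the exporter, had 269 CPM in Adherent and 35.6 in Suspension, and MYLIP, the ligase that degrades lipoprotein receptors, 364 CPM in Adherent and 30.9 in Suspension.

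Amino acid supply was lower in Adherent in the same way. Of 41 genes of serine synthesis, tRNA charging and the ATF4 response, 19 were lower and 5 higher. Of 14 cytosolic tRNA synthetase genes, 8 were lower and 0 higher (median −1.16), and GARS, the glycine enzyme, had 95.4 CPM in Adherent and 358 in Suspension. ASNS, asparagine synthetase, had 12.6 CPM in Adherent and 117 in Suspension, ALDH18A1, the entry to proline synthesis, 54.7 CPM in Adherent and 430.4 in Suspension, and the glycine transporter SLC6A9 13.0 CPM in Adherent and 161 in Suspension. ATF4 itself, the factor that drives many of these genes, was level at 978 CPM in Adherent and 1009 in Suspension. The 5 higher members were ATF3, CEBPB, STC2, JDP2 and VLDLR, and ATF3 had 1952 CPM in Adherent and 72.8 in Suspension.

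Genes of the endoplasmic reticulum also were lower, 22 of 40 against 3 higher (median −1.08). CANX, a folding lectin, had 195 CPM in Adherent and 737 in Suspension, and CREB3L1, a membrane-bound factor of secretory and collagen genes, 23.0 CPM in Adherent and 286 in Suspension. The 3 higher members were HERPUD1, HSPA5 and CRELD1. HSPA5, the main chaperone of the compartment, had 2872 CPM in Adherent and 760.0 in Suspension, and HERPUD1, of protein degradation there, 607 CPM in Adherent and 44.9 in Suspension. In the lysosome list 13 of 45 kept genes were lower and 2 higher, with the protease CTSD at 292 CPM in Adherent and 1665 in Suspension and the autophagy receptor SQSTM1 higher, at 227 CPM in Adherent and 75.9 in Suspension.

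Glycolysis was lower at several of its later steps. Of 11 glycolytic enzymes, 4 were lower in Adherent, PGK1, PGAM1, ENO1 and PKM, and 1, the hexokinase HK2, higher. PGK1 had 120.0 CPM in Adherent and 918 in Suspension, ENO1 577 CPM in Adherent and 2776 in Suspension, and HK2 662 CPM in Adherent and 254 in Suspension. EPAS1, a hypoxia factor abundant in endothelium, had 93.8 CPM in Adherent and 3.82 in Suspension, while HIF1A was level (−0.05). Oxidative phosphorylation was the most even list, since 42 of its 44 nuclear genes lay within 2-fold, with a median of −0.11 against −0.15 for all genes.

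Ribosomal protein genes were higher in Adherent almost throughout. Of 64 genes, 55 were higher and 0 lower, with ratios between 0.22 (RPS6) and 2.51 (RPL34) and a median of 1.53. Together they took 66066 CPM in Adherent, 25219 in Suspension and 44797 in Differentiated. RPL5, which also restrains MDM2, had 2992 CPM in Adherent and 958 in Suspension. Reads of any near-identical gene copies cannot be placed with certainty, but the list's median stayed at 1.53 over uniquely placed reads. Of 59 kept translation factors, 13 were higher and 7 lower. EEF1A1, the elongation factor, had 11424 CPM in Adherent and 5462 in Suspension, and EIF4EBP1, which holds back the cap-binding factor, 671 CPM in Adherent and 126 in Suspension. Of 10 eIF3 subunits, 5 were higher and 0 lower. The scaffold EIF4G1 had the other order, with 261 CPM in Adherent and 710.0 in Suspension.

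Genes of proliferation differed little. Of 63 kept mitosis genes, 49 stayed within 2-fold, 3 were higher and 11 lower, with a median of −0.34. MKI67, a marker of cycling cells, had 68.3 CPM in Adherent and 71.4 in Suspension, against 20.8 in Differentiated. MYBL2, a transcription factor of dividing cells, had 169 CPM in Adherent and 31.9 in Suspension, and ANLN, the anillin of the cleavage furrow, 20.0 CPM in Adherent and 122 in Suspension. Of 46 kept replication genes 13 were lower and 3 higher, and RRM2, which makes deoxynucleotides, had 23.4 CPM in Adherent and 87.1 in Suspension.

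Of 9 p53 target and death receptor genes, grouped after their values were seen, 8 were lower in Adherent, with a median of −1.74. SESN1, in the same list but outside these 9, was higher, at 1255 CPM in Adherent and 129 in Suspension. CDKN1A, the p21 inhibitor of the cell cycle, had 27.2 CPM in Adherent and 228 in Suspension (log2 ratio −3.07, interval −3.21 to −2.94), BAK1, of the mitochondrial death pathway, 38.1 CPM in Adherent and 152 in Suspension, and the receptor FAS 11.3 CPM in Adherent and 37.8 in Suspension. BCL2, which opposes cell death, had 667 CPM in Adherent and 69.3 in Suspension. Over the whole list of inhibitors, p53 and cell death genes 7 of 41 were higher and 13 lower, and its median of −0.53 became 0.12 with a minimum of 50 CPM. In the pluripotency and telomerase list 4 of 9 kept genes were higher and 3 lower, with SALL1 (−4.33) and POT1 (−1.33) among the lower ones. TERT, the catalytic subunit of telomerase, had 115 reads in Adherent (6.59 CPM) and 0 reads in both Suspension and Differentiated. With the 0 of Suspension set to 3 reads it stood 52.4-fold higher in Adherent, a value that rests on this floor.

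Genes of growth factor signalling were more often higher than lower in Adherent. Of 44 kept genes of FGF, IGF and PDGF signalling, 25 were higher and 4 lower, with a median of 1.47. All 44 reached 5 CPM in Adherent and 32 did in Suspension, so these counts partly follow from the minimum. With 10 CPM added to each library the median was 0.70. The receptor FGFR1 had 729.8 CPM in Adherent and 150.0 in Suspension, and FGFR4, which myoblasts make, a log2 ratio of 1.62. The inhibitors SPRY1 and SPRY2 had 759 and 842 CPM in Adherent, against 35.0 and 73.8 in Suspension, and SPRY1 keeps satellite cells quiescent in mouse. IRS2, an adaptor of the insulin receptor, had 101 CPM in Adherent and 10.0 in Suspension, and the binding protein IGFBP3 357 CPM in Adherent and 27.5 in Suspension. The ligand PDGFD and the factor ETV4 were lower, PDGFD at 35.1 CPM in Adherent and 189.9 in Suspension and ETV4 at 15.0 CPM in Adherent and 108 in Suspension.

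In the TGF-beta and BMP list 14 of 30 kept genes were higher and 5 lower in Adherent. BMP4 had 334 CPM in Adherent and 80.8 in Suspension, its target ID1 295 CPM in Adherent and 40.1 in Suspension, and the receptor TGFBR2 256 CPM in Adherent and 41.5 in Suspension. TGFB3 was the strongest in the other direction, with 133 CPM in Adherent and 1404 in Suspension.

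Wnt genes went both ways by member, 16 of 33 kept being higher and 11 lower, and the median of 0.84 became −0.46 with a minimum of 50 CPM. Ligands WNT5A and WNT5B had 80.4 and 118 CPM in Adherent, against 4.36 and 17.0 in Suspension, whereas WNT7A, which drives expansion of satellite cells in mouse, had 0.287 CPM in Adherent and 18.5 in Suspension. Among the secreted antagonists FRZB had 209 CPM in Adherent and 10.8 in Suspension, but SFRP2 52.0 CPM in Adherent and 487 in Suspension. Receptors divided too, FZD4 having 126 CPM in Adherent and 23.5 in Suspension, and FZD9 53.3 CPM in Adherent and 288 in Suspension. LGR5, a receptor of R-spondins, had 1.38 CPM in Adherent and 62.3 in Suspension, and LGR4 84.7 CPM in Adherent and 18.0 in Suspension.

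Of 21 kept Notch genes, 4 were higher and 5 lower, close to the shares over all genes (19.9% and 21.6%). The ligands DLL1 and DLL4 had 105 and 23.8 CPM in Adherent, against 6.21 and 0.336 in Suspension, and the noncanonical ligand DLK1 had 28.1 CPM in Adherent and 1 read in Suspension. Its relative DLK2 had 1.03 CPM in Adherent and 29.5 in Suspension. NOTCH1 had 27.2 CPM in Adherent and 103 in Suspension, and the target HES1 was level (−0.08).

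Of 39 kept redox genes, 10 were higher and 10 lower, not far from the shares over all genes (19.9% and 21.6%). Extracellular GPX3, a glutathione peroxidase, had 1318 CPM in Adherent and 246 in Suspension, while the peroxiredoxin PRDX1 had 105 CPM in Adherent and 296 in Suspension. The YAP, TEAD and SRF list had 4 of 23 genes higher and 6 lower, also not far from the shares over all genes. In it YAP1 was level (0.08) and WWTR1, which encodes TAZ, had 289 CPM in Adherent and 964 in Suspension.

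**Figure D5:**
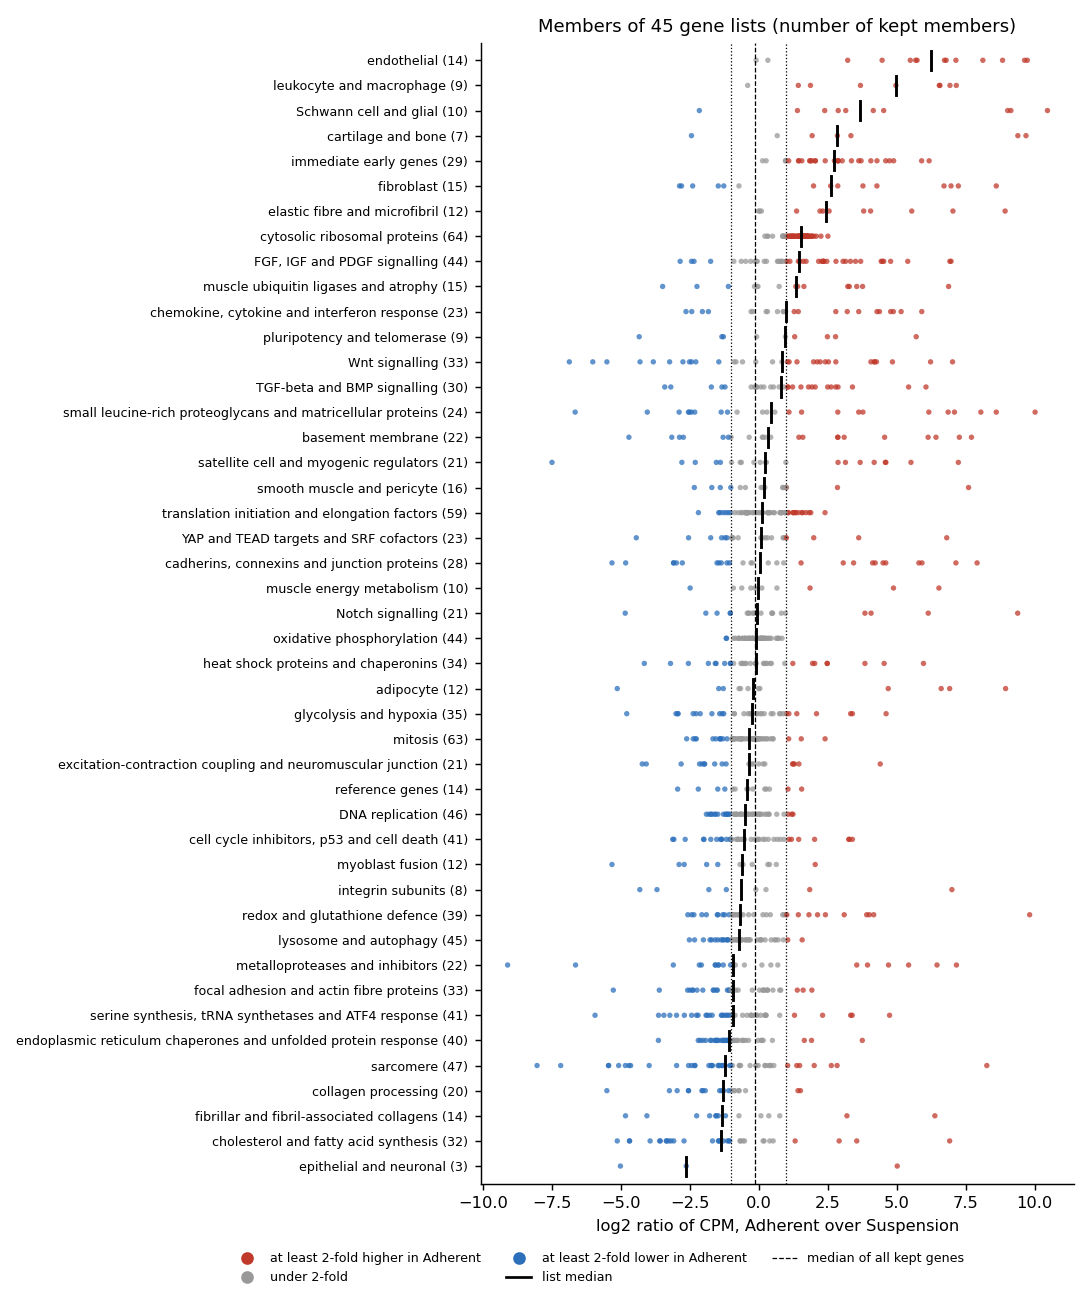
Log2 ratio of CPM of Adherent over Suspension (horizontal axis) for each kept member of the 45 gene lists, ordered by list median, with the number of kept members in brackets. Ticks mark list medians, dotted lines 2-fold and the dashed line the median of all 10811 genes, −0.15, and the lists run between endothelial (median 6.24) and epithelial and neuronal (median −2.62 over 3 genes).

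Outside the lists, the largest ratios belonged to genes of several kinds. Above 100 CPM in the higher library and with at least 10 reads in the lower, KCNE4, a potassium channel subunit, had 232 CPM in Adherent and 0.629 in Suspension, ACKR3, a scavenger of chemokine CXCL12, 299 CPM in Adherent and 1.72 in Suspension, and SCARA5, a ferritin receptor, 443 CPM in Adherent and 2.68 in Suspension. On the other side, F2RL1, a protease-activated receptor, had 1.38 CPM in Adherent and 121 in Suspension, PHLDA1 33.7 CPM in Adherent and 2077 in Suspension, SHISA2, an inhibitor of Wnt and FGF receptor maturation, 32.2 CPM in Adherent and 1769 in Suspension, and AHRR, the repressor of the dioxin receptor, 1.38 CPM in Adherent and 103 in Suspension. F2RL1 is Z-linked, as is C1QTNF3, which had 8.14 CPM in Adherent and 460.5 in Suspension.

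At or under 3 reads in Suspension were, among others, IL1RN, the interleukin-1 receptor antagonist, with 76.0 CPM in Adherent, DNASE1L3, a secreted nuclease of macrophages and dendritic cells, with 104 CPM, and CD83, of activated antigen-presenting cells, with 59.9 CPM. At or under 3 reads in Adherent were NMU, the neuropeptide neuromedin U, with 28.1 CPM in Suspension, SNCB, beta-synuclein, with 23.0 CPM, and TPH2, a serotonin synthesis enzyme, with 7.05 CPM. Other abundant genes were level. RBM24, a splicing regulator of muscle, had 1011 CPM in Adherent and 1036 in Suspension, the ATP synthase gene ATP5B 988 CPM in Adherent and 1006 in Suspension, and the calmodulin gene CALM2 509.8 CPM in Adherent and 514 in Suspension. Common reference genes were not all level, 4 of 14 being lower and 2 higher. Their log2 ratios ran from −2.94 for PGK1 to 1.56 for RPL13, with −0.39 for GAPDH, −0.94 for ACTB and 0.22 for TBP.

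Reads on introns, which come largely from unspliced RNA, gave a second reading of the same libraries. Among genes with annotated exons, and without UFL1, they made up 14.3% of gene reads in Adherent and 7.85% in Suspension (6.55% in Differentiated), with intervals narrower than 0.1 percentage points. For the ratios that follow, intron reads were divided by the intron reads of their own library. Of the 2154 genes higher in Adherent by exon reads, 1823 had at least 20 intron reads, and 92.6% of these were also higher by intron reads, 73.7% by at least 2-fold, while 29 genes were at least 2-fold lower. Of the 2334 lower genes 2034 had as many, and 71.1% were lower by intron reads, 44.4% by at least 2-fold, while 197 were at least 2-fold higher. The median over 9759 genes was 0.26 by intron reads and −0.15 by exon reads. The scaling decides these shares for the lower genes. Divided by exon reads, every intron log2 ratio lies 0.97 higher, and the median over the 9759 genes is 1.23. Most genes of any kind are then higher by introns. The share of all 9759 genes higher or lower by introns was not taken in either scaling. These medians are thus the only background for the shares above and for those that follow. In that scaling 98.2% of the higher genes and 45.03% of the lower ones keep their direction, and 575 of the lower genes are at least 2-fold higher by introns.

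Single genes show how far the readings can part. By intron reads the immediate early gene NR4A3 had a log2 ratio of 3.57, against 2.87 by exon reads, and CHRNA1, with a log2 ratio of −4.07 by exon reads, had 331 intron reads in Adherent and 3687 in Suspension. ADAMTS1 had 6.04 by intron reads and FKBP5 3.38. Both TIE1 and CSF1R differed less by introns. TIE1 had 55 intron reads in Adherent and 8 in Suspension, a log2 ratio of 2.26 against 9.64 by exon reads, and CSF1R, with 6.93 by exon reads, had 23 intron reads in Adherent and 4 in Suspension. For SQLE the ratio was −1.64 by introns and −4.68 by exons, and for HMGCS1, with 8 intron reads in Adherent and 12 in Suspension, the interval of the intron ratio includes 0. Others had opposite directions. HSPB1 had a log2 ratio of 1.93 by introns and −1.82 by exons, and CD44 had 1.10 by introns and −2.51 by exons.

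Median ratios differed little with length and abundance, but the shares of genes past 2-fold differed with abundance. Over 5 equal classes of exon length the median log2 ratio lay between −0.19 and 0.0028, highest for the longest genes. Over 5 classes of mean CPM it lay between −0.22 and 0.05. The share of genes higher in Adherent was largest, 32.8%, in the lowest class, where a ratio rests on the fewest reads and 25.2% were lower. In class 4, counted from the lowest, 14.0% were higher and 17.3% lower.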

How the data were processed

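Total RNA of cultured turkey satellite cells was sequenced as 1 pooled library per group. Reads were demultiplexed with bcl2fastq 2.20 and aligned with STAR 2.5.2b according to the submitters' processing notes. The study's methods name an Ensembl turkey genome and annotation. The table itself holds LOC symbols as RefSeq gives them, and its gene ends match RefSeq's Turkey_5.1 in 47.7% of the genes matched by symbol, so its build was not settled and no coordinates are printed. The deposited counts are whole numbers of reads per gene, made by the authors for exons, introns, exon junctions, unique reads and all gene reads. The fold-change score columns deposited by the authors hold their own comparisons between groups, and were used only to see which pair of count columns each rests on. The exon length deposited by the authors is in bases.

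Exon counts were divided by the exon reads of their library and multiplied to CPM. Genes with at least 5 CPM in either library were kept, and the log2 ratio is Adherent over Suspension with no pseudocount. A gene with 0 reads was set to 3 reads, so that its ratio rests on this floor, and the near end of its interval can lie closer to 0. No ratio was taken where both libraries had 3 reads or fewer. Levels and ratios have exact Poisson and Clopper-Pearson 95% intervals, which cover counting error only. Exon reads came to 17444865 in Adherent, 23844835 in Suspension and 22816125 in Differentiated, so that the floor of 3 reads stands at 0.172, 0.126 and 0.131 CPM. No p-value is given, because no group has a replicate.

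The 45 gene lists hold 1719 genes, of which 1281 were found in the table, 36 of them by older symbols. The members and lists were chosen with earlier results of these data known. The genes to be named were taken by rule, namely the 15 largest and 15 smallest ratios where one library had 100 CPM or more and the other no fewer than 10 reads, the 10 most abundant genes with 3 or fewer reads in the other library per direction, the 10 most abundant per library, the 10 largest CPM differences per direction, the 10 most abundant genes whose interval lies within 0.1 of 0, up to 4 extreme and the 2 most abundant members of each list, and cell type markers. Genes outside that rule, such as receptors set beside their ligands, and the smaller groups within lists (slow sarcomere forms, cholesterol enzymes, tRNA synthetases, glycolytic enzymes, p53 targets and the like) were chosen after their values were seen. Chromosomes were matched by symbol to RefSeq (Turkey_5.1), which found 18878 of 23976 genes. The ratio and its interval were tested on simulated data. Alternatives changed the pseudocount, the minimum, the scaling (edgeR 4.0.16 TMM and upper quartile, DESeq2 1.42.0 size factors in R 4.3.3), the kind of read and the fold limit. Intron reads were divided by the intron reads of their library (nuclear genes with exons, without UFL1), and, as an alternative chosen after seeing the data, by its exon reads. Python with pandas and scipy did the rest. Sequences were not used here. A few list members are counted but not reported by name here.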

Additional observations from a re-analysis of the deposited data

Results flagged for a closer look

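Reads outside the exon counts were flagged because none of them enter the comparison. The mitochondrial genes had 1510337 gene reads in Adherent (6.56% of gene reads) and 1218755 in Suspension (4.33%), with 769316 in Differentiated (2.97%), and none of these are exon reads in the table. Of 13 mitochondrial genes, 10 had at least 100 reads. Their log2 ratios of Adherent over Suspension ran from 0.20 for ND6 to 1.10 for ND5, with 0.89 for COX1. For these ratios the reads were divided by the exon reads of each library, a total that holds none of them. The ratios are therefore not on the scale of the percentages of gene reads, over which they would be lower.

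Introns of 1 nuclear gene, UFL1, a ligase that attaches the ubiquitin-like protein UFM1, held 525818 reads in Adherent, 407531 in Suspension and 252012 in Differentiated, while its exons held 753 reads in Adherent and 1302 in Suspension. UFL1 was therefore left out of the shares of intron reads.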

How the results depend on the processing

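The 2154 higher and 2334 lower genes stayed within 1.5 times those counts with 1 CPM added, with TMM, median-of-ratios or upper-quartile scaling, with totals that leave out the 10 most abundant genes of each library, with unique reads, with intervals wholly beyond 2-fold, and without the sex chromosomes or the lists of other cells, immediate early and heat shock genes. Under other settings 1 or both of the counts moved further, and the cause was not tested except where the setting itself sets the count. Past 1.5-fold only the lower count did so. With no minimum, and over gene reads of either kind, only the higher count did. With 10 CPM added there were 1311 higher and 1291 lower genes, with a minimum of 50 CPM 915 higher and 1150 lower, past 4-fold 1214 higher and 781 lower, and past 1.5-fold 2924 higher and 3684 lower. With no minimum there were 4148 higher and 2934 lower genes, over all gene reads 3289 higher and 2371 lower, and over gene reads without mitochondrial genes and UFL1 3541 higher and 2272 lower. These last settings, which add genes with few reads or intron reads, raised the higher share of all genes past 2-fold to 58.6%, 58.1% and 60.9%, against 48.0%. If the headings are exchanged, 2334 genes are higher and 2154 lower.

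The gap of −0.67 between Z-linked and other genes became −0.33 with 10 CPM added and lay between −0.69 and −0.56 in the other 10 alternatives. Of the 271 genes named by rule, none with a ratio past 2-fold changed direction in the settings that kept it (229 genes at 50 CPM), while genes close to 0 crossed it, 8 of them under upper-quartile scaling. Of the lists with a median past 1 in size, the epithelial and neuronal one, with 3 genes and a median of −2.62, became 0.67 with no minimum, 1.99 over all gene reads and 1.77 over gene reads without mitochondrial genes and UFL1. Other list medians moved far without a change of sign, the endothelial one of 6.24 to 2.35, the leukocyte one of 4.97 to 0.83 and the fibroblast one of 2.61 to 0.61 with 10 CPM added, the leukocyte one to 1.95 with no minimum, the integrin one of −0.64 to −2.74 at 50 CPM, and the cartilage and bone one of 2.86 to 1.02 with no minimum and to 9.69 at 50 CPM. Smaller medians that changed sign were those of smooth muscle (−0.57 at 50 CPM), integrins (0.22 over gene reads without mitochondrial genes and UFL1), and Wnt, junction and p53 genes as given above, while the Notch, adipocyte, energy, YAP and oxidative phosphorylation lists, with main medians within 0.2 of 0, also crossed 0 under some settings. TMM moved the median of all genes by −0.015, median-of-ratios by −0.003 and upper quartile by 0.090.

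No paired analysis was possible because each group is 1 library. With no replicate, differences between cultures, between birds and between libraries cannot be told from the difference between groups, and genes under about 20 reads carry wide intervals. Reads of near-identical copies, overlapping genes and antisense genes cannot be placed with certainty.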

Other observations

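Gene families sharing a symbol stem, grouped after the values were seen and only where at least 10 members were kept, differed in their medians. Of 93 such stems, the lowest median log2 ratio of Adherent over Suspension was that of the MYO genes of unconventional myosins, −1.30, with 8 of 13 lower, followed by the MFSD transporters at −1.09 and the SEC genes of secretory transport at −0.93. The highest was that of the KLF zinc finger factors, 2.32, with 8 of 10 higher, followed by the ADAMTS matrix proteases at 2.13, with 9 of 16 higher, and the SEMA axon guidance ligands at 1.74, with 9 of 14 higher. The background over all 10811 genes was 19.9% higher, 21.6% lower and a median of −0.15.

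Genes known only by a LOC number made up 2167 of the 10811, of which 555 were higher and 516 lower in Adherent.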
